A study of Mus musculus with 9 samples.

Results

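The genes described here are the DNA methyltransferase genes *Dnmt1*, *Dnmt3a*, and *Dnmt3b*, their relative *Dnmt3l*, the maintenance cofactor gene *Uhrf1*, the dioxygenase genes *Tet1*, *Tet2*, and *Tet3*, and the glycosylase gene *Tdg*. They were chosen by name as the enzymes that write, maintain, and remove cytosine methylation and the cofactors of the writers, and make up 9 of the 25239 gene symbols in the count files. RNA was sequenced from 3 lines of E14 mouse embryonic stem cells (ESCs), with 3 libraries per line and 9 in all. The control was E14 with both *Rbbp4* alleles intact (Rbbp4+/+). *Rbbp4* encodes a histone-binding subunit of several chromatin complexes, among them PRC2 and NuRD. Both alleles of Rbbp4Ins/Ins carried an insertion of 3 nucleotides, and Rbbp4Ins/Del combined an allele with that insertion and an allele that lacked 18 nucleotides. Each mutant line was 1 clone obtained after transfection with Cas9 and a guide RNA and selection with puromycin, so an effect of the mutation and a property of the clone cannot be told apart. Cells of all lines were grown in the same medium with serum and leukemia inhibitory factor. Nothing in the labels says that the libraries of a line came from separate cultures, so the P-values measure the spread between libraries, which may be technical.

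In mammals, DNMT3A and DNMT3B place methyl groups on unmethylated CpG dinucleotides, and DNMT3L, which has no catalytic activity of its own, binds and stimulates both. DNMT1 copies methylation onto the new strand after replication and is brought to hemimethylated DNA by UHRF1. TET enzymes oxidize 5-methylcytosine, and TDG excises the more oxidized products so that base excision repair can restore cytosine. ESCs express most of these genes at high levels, and the balance between them is known to differ between naive ESCs and primed epiblast cells.

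Values per library are normalized counts, that is, read counts brought to a common library size with TMM factors. The libraries held 15838064 to 21366868 counted reads each, and all 9 members were among the 14125 genes that passed the filter on low counts. A difference was called where the edgeR quasi-likelihood P-value, adjusted over all 14125 genes by the Benjamini-Hochberg method, was 0.01 or less, and log2 fold changes are given with their standard error (SE). Both mutants were compared with the same 3 control libraries, so the comparisons share those samples. *Rbbp4* transcript was 1.79-fold lower in Rbbp4Ins/Ins than in the control (edgeR adjusted P = 1.8e-25). In Rbbp4Ins/Del its log2 difference from the control was 0.05, with a 95% interval from -0.01 to 0.11 (edgeR adjusted P = 0.107). The 10 ESC markers fixed for the label check had reads, and their summed normalized count lay between 89547 and 93499 in the control, 110471 and 111350 in Rbbp4Ins/Ins, and 112110 and 115133 in Rbbp4Ins/Del.

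Against the control, 4 of the 9 members were called higher and 3 lower in Rbbp4Ins/Ins, where 29.0% of all tested genes were called higher and 29.4% lower. In Rbbp4Ins/Del, 5 members were called higher and 3 lower, beside 30.6% and 31.9% of all tested genes. The libraries of the mutant and the control did not overlap for 8 members in either line, a separation that 69.1% of tested genes showed in Rbbp4Ins/Ins and 72.8% in Rbbp4Ins/Del. Changes over 2-fold were called for 2 members in Rbbp4Ins/Ins, beside 16.0% of tested genes, and for 3 members in Rbbp4Ins/Del, beside 18.6%. Counts over 9 genes are a description and were not tested against these shares. The median absolute log2 fold change of the members was 0.27 in Rbbp4Ins/Ins and 0.42 in Rbbp4Ins/Del, and over all tested genes it was 0.30 and 0.34. The members differed among themselves, with the de novo methyltransferase transcripts lower, the *Dnmt3l* transcript higher, and the maintenance transcripts higher by 1.15-fold or less.

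**Figure D1:**
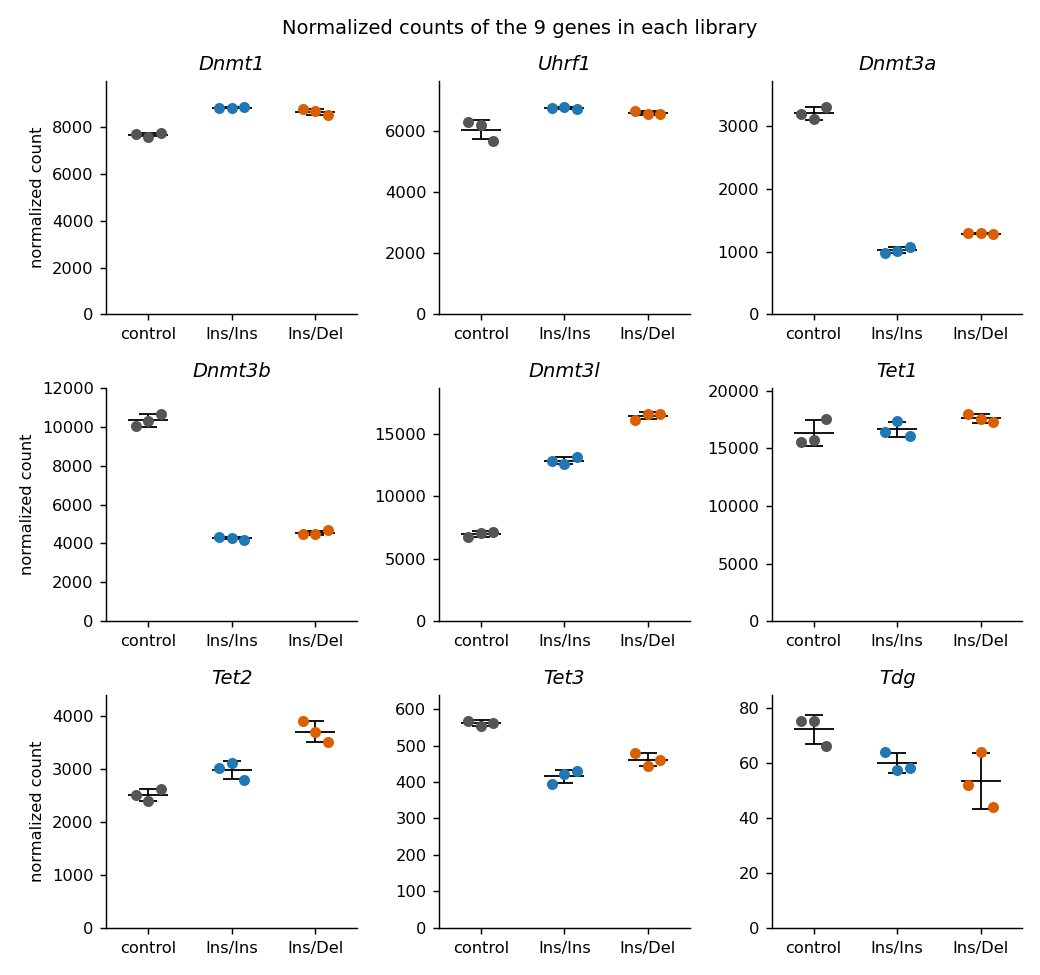
Normalized counts of the 9 members in each library (vertical axes, 1 panel per gene, each axis starting at 0). Points are libraries, horizontal bars are the means of the 3 libraries of a line, and error bars are SDs. *Dnmt3a* and *Dnmt3b* stood lower and *Dnmt3l* higher in all mutant libraries than in all control libraries, whereas the *Tet1* libraries of the 3 lines overlapped.

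*Dnmt1*, the maintenance methyltransferase, lies on the minus strand of chromosome 9 from 20907209 to 20959888 of GRCm38, the mm10 build, and *Uhrf1*, its cofactor, on the plus strand of chromosome 17 from 56303321 to 56323486. Their promoters are shown because the products of these genes act together, their transcripts were called higher in both mutants by similar folds, and they were the only members with a match to an E2F motif. E2F motifs were searched on both strands as TTTCCCGC, TTTCGCGC, TTTGCCGC, and TTTGGCGC, which 2.26% of the 32851 mouse promoters in the RefSeq table (GRCm38.p6, 250 bases before to 50 bases after a start, 300 bases each) contained. Capitals mark the matches in the promoters of Dnmt1-203, on the minus strand at chr9:20952574-20952873, and Uhrf1-202, on the plus strand at chr17:56304063-56304362, both printed 5′ to 3′ on the gene's strand.
Dnmt1-203: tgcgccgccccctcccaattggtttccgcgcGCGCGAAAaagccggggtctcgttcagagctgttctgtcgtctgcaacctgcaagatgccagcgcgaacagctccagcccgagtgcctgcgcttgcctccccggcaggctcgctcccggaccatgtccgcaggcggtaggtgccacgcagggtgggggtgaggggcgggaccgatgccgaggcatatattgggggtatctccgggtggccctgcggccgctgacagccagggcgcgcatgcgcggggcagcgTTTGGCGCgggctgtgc
Uhrf1-202: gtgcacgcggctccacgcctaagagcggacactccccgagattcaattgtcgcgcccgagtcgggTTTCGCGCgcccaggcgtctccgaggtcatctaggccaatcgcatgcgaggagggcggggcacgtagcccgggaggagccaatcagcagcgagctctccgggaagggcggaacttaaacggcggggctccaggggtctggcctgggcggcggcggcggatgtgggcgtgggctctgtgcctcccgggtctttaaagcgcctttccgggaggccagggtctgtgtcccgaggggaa
The first match of Dnmt1-203 reads TTTCGCGC on the opposite strand and the second reads TTTGGCGC, and the match of Uhrf1-202 reads TTTCGCGC. Each of these promoters held 33 CG dinucleotides, where the median promoter of the table held 7. The other *Dnmt1* starts in the table held 12 and 2 and the other *Uhrf1* start held 12, with no E2F match in any of the 3. A match describes letters in the sequence and is not evidence of a factor at the site.

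*Dnmt1* had normalized counts of 7708, 7604, and 7762 in the control libraries. In Rbbp4Ins/Ins it had 8836, 8828, and 8870, and in Rbbp4Ins/Del 8781, 8691, and 8532. Every mutant library lay above every control library, by a small margin. The transcript was 1.15-fold higher in Rbbp4Ins/Ins, a log2 fold change of 0.20 ± 0.0271 (SE, edgeR adjusted P = 2.8e-08), and 1.13-fold higher in Rbbp4Ins/Del, a log2 fold change of 0.17 ± 0.0271 (SE, edgeR adjusted P = 5.6e-07). Between the mutants the log2 difference was -0.03, with a 95% interval from -0.08 to 0.03 (edgeR adjusted P = 0.508).

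*Uhrf1*, whose product recognizes hemimethylated CpG, had 6273, 6171, and 5669 normalized counts in the control. It had 6753, 6775, and 6720 in Rbbp4Ins/Ins and 6646, 6529, and 6540 in Rbbp4Ins/Del. The groups did not overlap, and the third control library was the lowest of the 9. *Uhrf1* was 1.12-fold higher in Rbbp4Ins/Ins (log2 fold change 0.16 ± 0.0312 SE, edgeR adjusted P = 2.6e-05) and 1.09-fold higher in Rbbp4Ins/Del (0.12 ± 0.0313 SE, edgeR adjusted P = 0.00079). Between the mutants its log2 difference was -0.04, with a 95% interval from -0.10 to 0.03 (edgeR adjusted P = 0.43). Of the 50-base windows of its longest transcript, 18.9% also occurred in transcripts of the predicted genes *Gm5648* and *Gm15953*, so part of its reads could have been assigned elsewhere or discarded.

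*Dnmt3a*, a de novo methyltransferase, lies on the plus strand of chromosome 12 from 3806007 to 3914443, and *Dnmt3b*, the other one, on the plus strand of chromosome 2 from 153649450 to 153687730. *Dnmt3l* lies on the plus strand of chromosome 10 from 78041947 to 78063622. One promoter of each is shown because DNMT3L binds DNMT3A and DNMT3B, while its transcript moved in the direction opposite to theirs. Another reason is that CpG content is the feature of a promoter that DNA methylation acts on. CG dinucleotides are in capitals. The promoters are those of Dnmt3a-203 at chr12:3891494-3891793, *Dnmt3b* at chr2:153649199-153649498, and Dnmt3l-201 at chr10:78049592-78049891, all on the plus strand and from the RefSeq table.
Dnmt3a-203: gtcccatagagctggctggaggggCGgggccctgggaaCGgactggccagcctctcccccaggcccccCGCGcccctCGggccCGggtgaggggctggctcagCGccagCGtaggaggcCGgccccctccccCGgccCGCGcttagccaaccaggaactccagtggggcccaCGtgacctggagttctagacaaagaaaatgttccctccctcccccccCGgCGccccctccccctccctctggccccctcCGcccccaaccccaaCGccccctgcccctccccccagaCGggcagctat
Dnmt3b: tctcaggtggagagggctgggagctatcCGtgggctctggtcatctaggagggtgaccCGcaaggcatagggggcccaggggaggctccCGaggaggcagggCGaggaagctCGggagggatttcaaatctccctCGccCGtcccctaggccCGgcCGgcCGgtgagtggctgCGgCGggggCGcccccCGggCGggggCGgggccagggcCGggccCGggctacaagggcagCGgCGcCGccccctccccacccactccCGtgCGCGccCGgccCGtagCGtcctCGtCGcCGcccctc
Dnmt3l-201: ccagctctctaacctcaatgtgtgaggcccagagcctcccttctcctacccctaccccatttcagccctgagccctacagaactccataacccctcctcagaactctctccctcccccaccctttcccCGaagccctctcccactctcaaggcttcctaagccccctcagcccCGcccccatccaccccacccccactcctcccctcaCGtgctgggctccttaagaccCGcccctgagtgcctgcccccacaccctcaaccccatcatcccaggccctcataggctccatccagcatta
The *Dnmt3b* promoter held 30 CG dinucleotides and that of Dnmt3a-203 held 18. The Dnmt3l-201 promoter held 4, fewer than the median of 7, and the other *Dnmt3l* starts in the table had 6 and 3. The other *Dnmt3a* starts had 46 and 47. The counts are per gene and do not say which start was used. None of the 9 members had a match to TATAAA, which 13.6% of all promoters contained, or to the octamer ATGCAAAT, which 1.74% contained, in the windows of the table.

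In the control libraries, *Dnmt3a* had normalized counts of 3199, 3114, and 3311. It had 984.5, 1010, and 1076 in Rbbp4Ins/Ins and 1296, 1298, and 1277 in Rbbp4Ins/Del. All 3 lines were separate from each other, with Rbbp4Ins/Ins the lowest. *Dnmt3a* fell 3.14-fold in Rbbp4Ins/Ins (log2 fold change -1.65 ± 0.0398 SE, edgeR adjusted P = 1.8e-30) and 2.48-fold in Rbbp4Ins/Del (-1.31 ± 0.0386 SE, edgeR adjusted P = 8.1e-28). The direct comparison of the mutants placed it 1.26-fold higher in Rbbp4Ins/Del (log2 0.34 ± 0.0439 SE, edgeR adjusted P = 2.6e-07). The antisense gene *Dnmt3aos*, which overlaps 0.8% of the exonic length of *Dnmt3a*, had no read in any library.

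*Dnmt3b* had 10022, 10313, and 10670 normalized counts in the control. It had 4319, 4299, and 4194 in Rbbp4Ins/Ins and 4480, 4460, and 4679 in Rbbp4Ins/Del. The lowest control library held more than the highest mutant library by a wide margin, and the mutant lines were near each other. *Dnmt3b* fell 2.42-fold in Rbbp4Ins/Ins (log2 fold change -1.27 ± 0.0303 SE, edgeR adjusted P = 1.1e-30) and 2.28-fold in Rbbp4Ins/Del (-1.19 ± 0.0302 SE, edgeR adjusted P = 6.2e-30). The difference between the mutants did not pass the threshold, with a log2 value of 0.09 and a 95% interval from 0.02 to 0.15 (edgeR adjusted P = 0.0462). *Dnmt3c*, a rodent relative that shared 11.5% of the 50-base windows of the *Dnmt3b* transcript, had no row in the count files.

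*Dnmt3l* moved the other way. It had 6702, 7051, and 7147 normalized counts in the control, 12821, 12572, and 13119 in Rbbp4Ins/Ins, and 16101, 16565, and 16591 in Rbbp4Ins/Del. The 3 lines were separate, in the order control, Rbbp4Ins/Ins, Rbbp4Ins/Del. *Dnmt3l* rose 1.84-fold in Rbbp4Ins/Ins (log2 fold change 0.88 ± 0.0287 SE, edgeR adjusted P = 2.8e-26) and 2.36-fold in Rbbp4Ins/Del (1.24 ± 0.0287 SE, edgeR adjusted P = 3.1e-31). It was 1.28-fold higher in Rbbp4Ins/Del than in Rbbp4Ins/Ins (edgeR adjusted P = 2.1e-12). *Aire*, a transcriptional regulator gene on the opposite strand, overlaps 2.24% of the exonic length of *Dnmt3l*. Its mean normalized count was 230.2 in the control, 564.8 in Rbbp4Ins/Ins, and 730.3 in Rbbp4Ins/Del, far below that of *Dnmt3l*. The strand setting of the counting is not given in the sources used here, and the part of the overlap in either count was not tested.

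**Figure D2:**
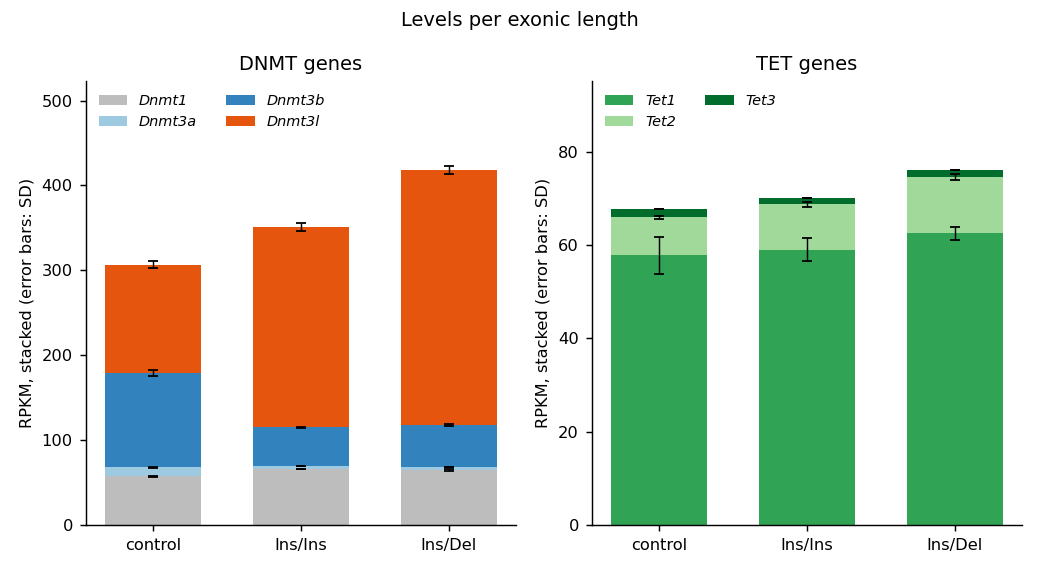
Stacked mean RPKM (read density per exonic length and library size, vertical axis) of the 4 DNMT genes and of the 3 TET genes in each line. The error bar at the top of each segment is the SD of that gene over 3 libraries. *Dnmt3l* made up 41.7% of the DNMT sum in the control and 72.0% in Rbbp4Ins/Del, whereas *Tet1* made up at least 82.1% of the TET sum in each line.

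Levels of different genes were compared per exonic length, in RPKM, the read count scaled to library size and exonic length, as a description without a test. In the control, *Dnmt3l* stood highest of the family at 128 ± 4.30 RPKM (SD, n = 3), above *Dnmt3b* at 111 ± 3.48, *Dnmt1* at 57.2 ± 0.596, and *Dnmt3a* at 10.6 ± 0.325. *Uhrf1*, for comparison, stood at 77.7 ± 4.16 RPKM. In both mutants *Dnmt1* stood above *Dnmt3b*, with 65.7 ± 0.169 against 45.9 ± 0.723 RPKM in Rbbp4Ins/Ins and 64.4 ± 0.938 against 48.8 ± 1.3 in Rbbp4Ins/Del (SD, n = 3 each). *Dnmt3l* was at 236 ± 5.03 RPKM in Rbbp4Ins/Ins and 301 ± 5.06 in Rbbp4Ins/Del. Neighbours in each of these orders were apart by more than their SDs.

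The share of *Dnmt3b* in the summed RPKM of the 4 DNMT genes was 36.2 ± 0.22% (SD, n = 3) in the control, 13.1 ± 0.36% in Rbbp4Ins/Ins, and 11.6 ± 0.26% in Rbbp4Ins/Del. That of *Dnmt3a* was 3.45 ± 0.096%, 0.962 ± 0.036%, and 1.02 ± 0.019% in the same order. The *Dnmt1* share was 18.7 ± 0.47% in the control, 18.8 ± 0.21% in Rbbp4Ins/Ins, and 15.4 ± 0.39% in Rbbp4Ins/Del. Its own level was higher in both mutants, and the sum rose with *Dnmt3l* from 307 ± 7.9 RPKM to 351 ± 4.7 and 419 ± 4.9. Only in Rbbp4Ins/Del, where the sum rose most, was the *Dnmt1* share lower than in the control. These shares are of RNA and say nothing of protein or of enzyme activity. The 4 genes share a library and its depth within each share.

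*Tet1*, the main TET transcript of ESCs, lies on the minus strand of chromosome 10 from 62804570 to 62908996. It had 15580, 15716, and 17596 normalized counts in the control, 16458, 17394, and 16079 in Rbbp4Ins/Ins, and 18010, 17549, and 17276 in Rbbp4Ins/Del. The lines overlapped, and the third control library lay among the Rbbp4Ins/Del libraries. In Rbbp4Ins/Ins the log2 difference from the control was 0.03, with a 95% interval from -0.04 to 0.10 (edgeR adjusted P = 0.425). In Rbbp4Ins/Del *Tet1* was called 1.08-fold higher (log2 0.11 ± 0.0333 SE, edgeR adjusted P = 0.00303), although the groups overlapped. This call did not hold with scaling by total counts (log2 0.10, edgeR adjusted P = 0.0105), with DESeq2 (log2 0.12, adjusted P = 0.0523), or without the first control, the second control, or the first Rbbp4Ins/Del library (log2 0.08, 0.10, and 0.10, edgeR adjusted P = 0.0387, 0.0143, and 0.0238). Without the third control library the difference in Rbbp4Ins/Ins was 0.10 and was called (edgeR adjusted P = 0.00443). Between the mutants the log2 difference of *Tet1* was 0.08, with a 95% interval from 0.01 to 0.15, and was not called (edgeR adjusted P = 0.0817).

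*Tet2*, whose product lacks the CXXC domain of TET1, lies on the minus strand of chromosome 3 from 133463679 to 133545139. It had 2507, 2391, and 2618 normalized counts in the control, 3025, 3126, and 2792 in Rbbp4Ins/Ins, and 3922, 3702, and 3517 in Rbbp4Ins/Del. The 3 lines were separate and in that order, as for *Dnmt3l*. *Tet2* rose 1.19-fold in Rbbp4Ins/Ins (log2 fold change 0.25 ± 0.0406 SE, edgeR adjusted P = 1.2e-06) and 1.48-fold in Rbbp4Ins/Del (0.57 ± 0.0400 SE, edgeR adjusted P = 1.1e-15). The mutants differed 1.25-fold (edgeR adjusted P = 9.7e-08).

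*Tet3*, the TET gene best known from the zygote and from neural tissue, lies on the minus strand of chromosome 6 from 83362373 to 83459084. It had 568.5, 554.1, and 563.0 normalized counts in the control, 394.3, 423.2, and 429.2 in Rbbp4Ins/Ins, and 478.4, 444.8, and 461.7 in Rbbp4Ins/Del. The mutant libraries all lay below the lowest control library. *Tet3* fell 1.36-fold in Rbbp4Ins/Ins (log2 fold change -0.44 ± 0.0631 SE, edgeR adjusted P = 1.1e-07) and 1.22-fold in Rbbp4Ins/Del (-0.29 ± 0.0621 SE, edgeR adjusted P = 0.0001). Between the mutants the log2 difference was 0.15, with a 95% interval from 0.02 to 0.29 (edgeR adjusted P = 0.0963).

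Per length, *Tet1* stood at 57.8 ± 4.0 RPKM in the control, *Tet2* at 8.14 ± 0.368, and *Tet3* at 1.85 ± 0.0238 (SD, n = 3 each), and this order held in both mutants. The summed TET level was 67.8 ± 4.3 RPKM in the control, 70.1 ± 2.9 in Rbbp4Ins/Ins, and 76.1 ± 2.0 in Rbbp4Ins/Del. The share of *Tet2* in it was 12.0 ± 0.41%, 13.8 ± 0.36%, and 15.9 ± 0.45% in the same order, and that of *Tet3* was 2.73 ± 0.17%, 1.95 ± 0.12%, and 1.99 ± 0.058%. *Tet1* kept 85.2 ± 0.56% of the sum in the control, 84.2 ± 0.24% in Rbbp4Ins/Ins, and 82.1 ± 0.43% in Rbbp4Ins/Del.

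*Tdg*, the glycosylase that removes the oxidized bases, lies on the plus strand of chromosome 10 from 82629828 to 82650799. It had few reads, with 75.23, 75.42, and 66.04 normalized counts in the control, 64.15, 57.55, and 58.14 in Rbbp4Ins/Ins, and 52.14, 64.06, and 43.97 in Rbbp4Ins/Del. All mutant libraries lay below the control libraries, but neither difference passed the threshold. The log2 difference was -0.27 in Rbbp4Ins/Ins, with a 95% interval from -0.60 to 0.07 (edgeR adjusted P = 0.148), and -0.42 in Rbbp4Ins/Del, with an interval from -0.76 to -0.08 (edgeR adjusted P = 0.0241). Without the second Rbbp4Ins/Del library the value was -0.58 and was called (edgeR adjusted P = 0.00793). Between the mutants, whose libraries overlapped, the log2 difference was -0.16, with a 95% interval from -0.51 to 0.20 (edgeR adjusted P = 0.593). Of the 50-base windows of the *Tdg* transcript, 66.3% also occurred in transcripts of other genes, chiefly the processed pseudogene *Tdg-ps* and the predicted genes *Gm9855* and *Gm5597*. Reads that could belong to a copy may not have been counted, so the level of *Tdg*, at 0.737 ± 0.0547 RPKM in the control (SD, n = 3), is uncertain. *Glt8d2*, on the opposite strand, overlaps 6.83% of the exonic length of *Tdg* and had from 0 to 4 reads per library. The part of this overlap in the *Tdg* count was not tested.

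**Figure D3:**
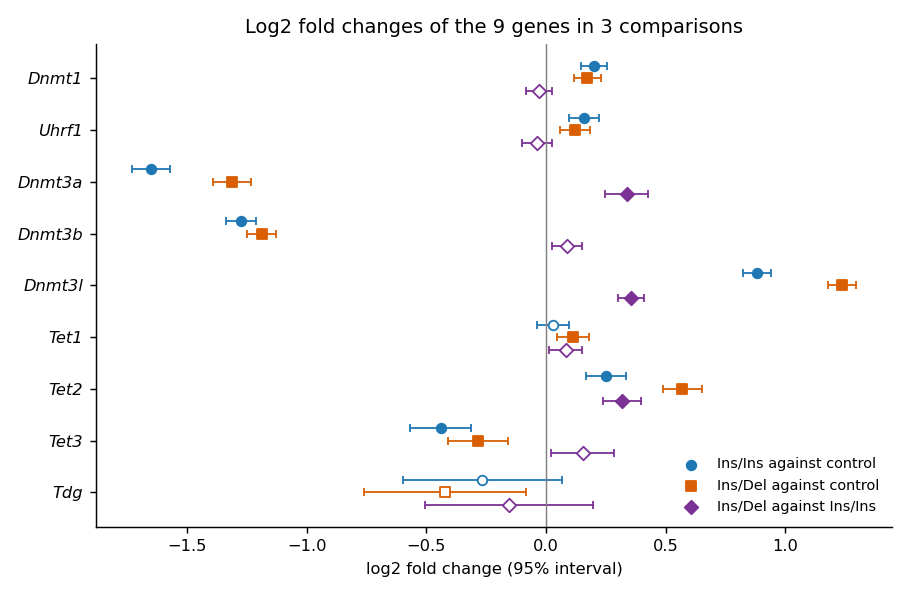
Log2 fold changes of the 9 members (horizontal axis) with 95% intervals, for each mutant against the control and for Rbbp4Ins/Del against Rbbp4Ins/Ins. Filled points passed an adjusted P-value of 0.01 in edgeR and open points did not. *Dnmt3a* and *Dnmt3b* lay furthest to the left and *Dnmt3l* furthest to the right in both mutants.

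The direct comparison of the lines asked whether the members differed between the mutants. In it 3 members, *Dnmt3a*, *Dnmt3l*, and *Tet2*, were called higher in Rbbp4Ins/Del and 0 lower with edgeR, where 6.17% of all tested genes were called higher and 4.64% lower. At an unadjusted P-value under 0.05, and with DESeq2, 0 members were lower in Rbbp4Ins/Del as well. The libraries of the mutants did not overlap for 7 members, a separation shown by 34.1% of tested genes. No member differed more than 2-fold between the mutants. The median absolute log2 difference was 0.15 for the members and 0.11 for all tested genes. For *Dnmt3a* the Rbbp4Ins/Del level was the nearer of the mutants to the control, whereas for *Dnmt3l* and *Tet2* it was the farther.

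Each member was also matched to the 1 tested gene outside the members whose log2 CPM correlated best with it over the 9 libraries, as a description. The gene most like *Dnmt3b* was *Lpp*, which encodes a focal adhesion protein (Pearson r = 0.9989). The gene most like *Dnmt3l* was *Arntl2*, a paralog of the clock gene *Arntl* (r = 0.9986). *Serpine2* was most like *Dnmt1* (r = 0.9952), *Rgma* like *Tet3* (r = 0.9943), *Mrps16* like *Uhrf1* (r = 0.9897), *Med13* like *Tet2* (r = 0.9895), *Ago3* like *Tet1* (r = 0.9624), and *Nat8l* like *Tdg* (r = 0.9529). The 9 points are 3 lines of 3 libraries, so such values mostly reflect the 3 line means. Above r = 0.95 there were 1469 genes for *Dnmt3l* and 1407 for *Dnmt3b*, but 1 each for *Tet1* and *Tdg*.

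The genes around the members were examined in 7 lists written by hand. Of each list the text names at most 4 genes, those with the largest mean change among genes called the same way in both mutants. It also names 3 more germline genes that were not called higher. Of all tested genes, 29.0% were called higher and 29.4% lower in Rbbp4Ins/Ins, and 30.6% and 31.9% in Rbbp4Ins/Del. The counts in the lists stand beside these shares and were not tested against them. The first list held 10 genes of readers of methylated CpG or of relatives of such readers. Of these, 3 were called higher and 4 lower in Rbbp4Ins/Ins, and 4 higher and 4 lower in Rbbp4Ins/Del. *Mbd1*, a methyl-CpG-binding repressor, fell 1.64-fold and 1.57-fold in the lines in that order (edgeR adjusted P = 4.7e-12 and 4e-11). *Mbd2*, a reader found in NuRD, rose 1.42-fold and 1.56-fold (edgeR adjusted P = 7.3e-09 and 1.4e-11), and *Uhrf2*, the paralog of *Uhrf1*, fell 1.35-fold and 1.25-fold (edgeR adjusted P = 5.9e-10 and 3.7e-07). *Zbtb4*, a zinc finger reader of lower counts, fell 1.5-fold and 1.69-fold (edgeR adjusted P = 0.00665 and 0.00068), and its Rbbp4Ins/Ins call did not hold with DESeq2 (log2 -0.59, adjusted P = 0.0417) or when any of 5 libraries was left out (log2 -0.63 to -0.46).

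The next list held 17 genes of regulators of DNA methylation or of relatives of the DNA methyltransferases. Of these, 16 were tested, with 5 called higher and 6 lower in Rbbp4Ins/Ins and 3 higher and 6 lower in Rbbp4Ins/Del. *Zfp57*, the zinc finger gene that protects methylation at imprinted loci, had a mean of 4354 ± 238 normalized counts in the control (SD, n = 3), 6910 ± 144 in Rbbp4Ins/Ins, and 8018 ± 188 in Rbbp4Ins/Del. It rose 1.59-fold and 1.84-fold (edgeR adjusted P = 2.1e-20 and 1.7e-24). *Dppa3*, whose product opposes maintenance methylation by binding UHRF1, had 416.8 ± 6.45, 342.3 ± 13.5, and 181.4 ± 21.2 in the same order. It fell 1.22-fold in Rbbp4Ins/Ins (edgeR adjusted P = 0.00109) and 2.31-fold in Rbbp4Ins/Del (edgeR adjusted P = 6.5e-16). *Cdca7l*, a paralog of the HELLS activator gene *Cdca7*, fell 1.66-fold and 1.67-fold, and *Ehmt2*, which encodes the H3K9 methyltransferase G9a, fell 1.23-fold and 1.28-fold (edgeR adjusted P at most 2.2e-09 in each). The median log2 fold change of the 16 was -0.06 in Rbbp4Ins/Ins and 0.02 in Rbbp4Ins/Del, near the median of all tested genes, which was 0.0038 and -0.011.

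Among 16 partners of TET and enzymes around its cosubstrate 2-oxoglutarate, 8 were called higher and 4 lower in Rbbp4Ins/Ins, and 6 higher and 5 lower in Rbbp4Ins/Del. *Cxxc4*, which encodes the CXXC protein that binds TET2, had 29.52 ± 5.89 normalized counts in the control (SD, n = 3), 3.544 ± 1.52 in Rbbp4Ins/Ins, and 4.544 ± 3.54 in Rbbp4Ins/Del, between 1 and 7 reads in each mutant library. It fell by 2.98 and 2.72 on the log2 scale (edgeR adjusted P = 8.5e-08 and 2.3e-07). Without single libraries the value ranged from -3.375 to -2.731 in Rbbp4Ins/Ins. In Rbbp4Ins/Del it ranged from -3.32, without the third Rbbp4Ins/Del library, to -2.26. *Cxxc5*, its paralog, fell 1.20-fold and 1.46-fold, while the isocitrate dehydrogenase genes *Idh1*, which rose 1.21-fold and 1.52-fold, and *Idh3b*, which rose 1.31-fold and 1.3-fold, went up (edgeR adjusted P at most 1.1e-06 in each).

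Of 16 genes of base excision repair and its helpers, 15 were tested, and 3 were called higher and 6 lower in each mutant. *Apex1*, the abasic site endonuclease, had 3120 ± 130 normalized counts in the control (SD, n = 3), 1632 ± 7.53 in Rbbp4Ins/Ins, and 1673 ± 67.0 in Rbbp4Ins/Del, and fell 1.91-fold and 1.86-fold (edgeR adjusted P = 3.4e-23 and 1e-22). *Gadd45g*, a stress-response gene linked to demethylation, fell 3.28-fold and 3.52-fold (edgeR adjusted P = 1.5e-13 and 4e-14), *Neil2*, a glycosylase gene, 1.82-fold and 1.99-fold (1.9e-06 and 1.9e-07), and *Gadd45b* 1.33-fold and 1.37-fold (0.00011 and 3e-05). The list as a whole had a median log2 fold change of -0.02 and -0.08.

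In the methyl donor cycle, which supplies S-adenosylmethionine, 17 of 19 genes were tested. In each mutant 10 were called higher, and 5 were called lower in Rbbp4Ins/Ins and 4 in Rbbp4Ins/Del, with a median log2 fold change of 0.15 and 0.31. *Shmt2*, the mitochondrial serine hydroxymethyltransferase, had 2722 ± 35.8 normalized counts in the control (SD, n = 3), 5256 ± 150 in Rbbp4Ins/Ins, and 5634 ± 174 in Rbbp4Ins/Del, and rose 1.93-fold and 2.07-fold (edgeR adjusted P = 1.4e-25 and 3.8e-27). *Tdh*, threonine dehydrogenase, through which mouse ESCs feed threonine into 1-carbon metabolism, went the other way, from 4834 ± 182 to 1759 ± 51.7 and 1748 ± 69.4, and fell 2.75-fold and 2.76-fold (edgeR adjusted P = 4.7e-30 and 3e-30). The betaine-homocysteine methyltransferase genes rose from a few reads, *Bhmt* from 2.514 ± 3.49 normalized counts to 16.77 ± 3.31 and 34.63 ± 8.06 (edgeR adjusted P = 3.1e-05 and 2.8e-09), and *Bhmt2* from 3.968 ± 1.10 to 20.19 ± 4.77 and 25.99 ± 1.78 (4.4e-06 and 1.3e-07). The control libraries held 0, 1, and 6 *Bhmt* reads, and its log2 fold changes of 2.79 and 3.86 moved to 4.83 and 5.90 without the third of them and to 2.12 and 3.19 without the first.

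The list with the largest median change of the 7 held 16 germline genes known to be silenced by promoter methylation in somatic cells. The lists were chosen with earlier results of these data known, so this rank is a description only. In each mutant 13 of them were called higher, and the median log2 fold change was 1.36 in Rbbp4Ins/Ins and 1.59 in Rbbp4Ins/Del. *Piwil2*, called lower in Rbbp4Ins/Ins, *Ddx4*, and *Brdt* were the members that were not called higher, with log2 values of -0.30, -0.06, and -0.26 in Rbbp4Ins/Ins and -0.21, 0.05, and 0.28 in Rbbp4Ins/Del. The summed normalized count of the list lay between 3603 and 3655 in the control, 7895 and 8326 in Rbbp4Ins/Ins, and 9019 and 9379 in Rbbp4Ins/Del. *Sohlh2*, a germ cell transcription factor gene, had 215.3 ± 27.3 normalized counts in the control (SD, n = 3), 1392 ± 12.0 in Rbbp4Ins/Ins, and 1648 ± 42.4 in Rbbp4Ins/Del, and rose 6.46-fold and 7.65-fold (edgeR adjusted P = 3.6e-31 and 7.1e-33).

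Other germline genes started from a few reads in the control. *Tex101*, a testis surface antigen gene, went from 5.469 ± 1.27 normalized counts to 78.06 ± 18.5 and 95.23 ± 6.73 and rose 13.7-fold and 16.8-fold (edgeR adjusted P = 7.4e-15 and 1.9e-16). *Dpep3*, a dipeptidase gene of the testis, went from 3.009 ± 2.22 to 19.69 ± 6.07 and 22.95 ± 5.78 (edgeR adjusted P = 5.3e-06 and 7.5e-07). Without the third control library its log2 fold changes of 2.68 and 2.89 moved to 3.31 and 3.52. *Asz1*, of the piRNA pathway, went from 3.451 ± 3.42 to 13.67 ± 6.86 and 34.35 ± 7.13 (edgeR adjusted P = 0.00141 and 1.5e-08), and its Rbbp4Ins/Ins call was lost without the first control library (log2 1.46, edgeR adjusted P = 0.0208) or without the second Rbbp4Ins/Ins library (1.56, edgeR adjusted P = 0.0241). Without the second control library the log2 values of *Asz1* moved from 1.98 and 3.34 to 3.12 and 4.48. DNA methylation itself was not measured, and the part of the methyltransferases in these values was not tested.

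**Figure D4:**
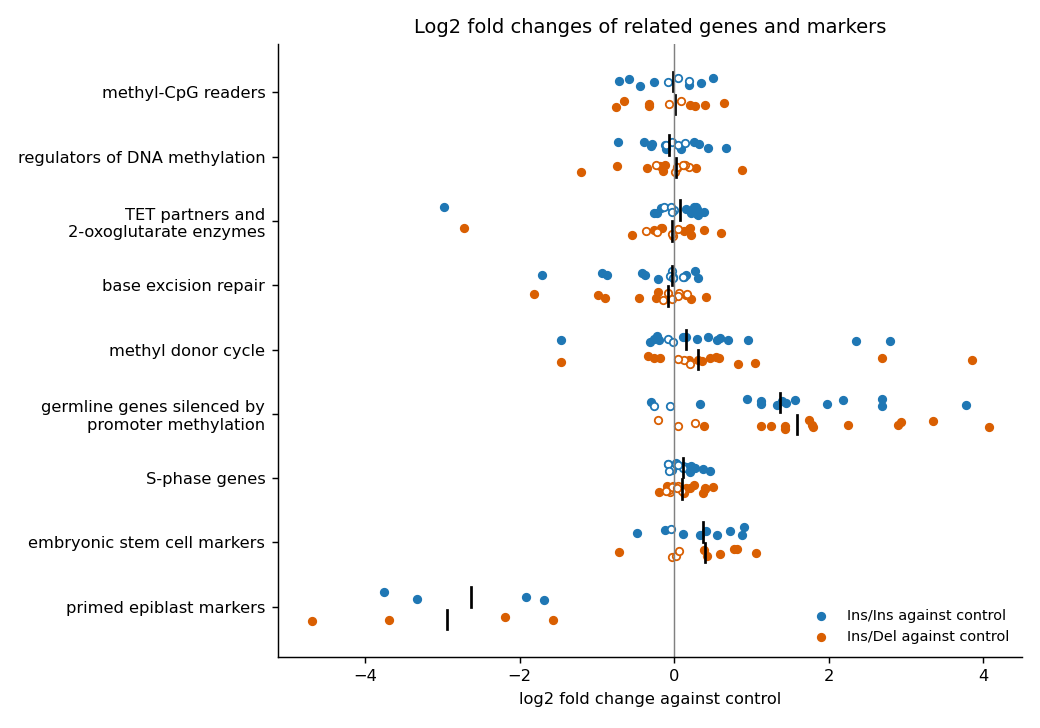
Log2 fold changes against the control (horizontal axis) of the tested genes of 7 lists around DNA methylation and of 2 marker lists, in each mutant, with points spread vertically for legibility. Filled points passed an adjusted P-value of 0.01 in edgeR, open points did not, and black lines are list medians. The germline genes lay mostly to the right, with medians of 1.36 and 1.59, and the primed epiblast markers to the left, with medians of -2.62 and -2.94, while the medians of the other 6 lists around DNA methylation lay between -0.08 and 0.31.

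*Dnmt1* and *Uhrf1* are known to be transcribed mainly in S phase, so 19 S-phase genes are given beside them. In Rbbp4Ins/Ins 8 were called higher and 0 lower with edgeR (1 was lower at an unadjusted P-value under 0.05, and 0 with DESeq2). Another 11 were not called, and of all tested genes 29.0% were called higher and 29.4% lower. In Rbbp4Ins/Del 9 were called higher and 2 lower, beside 30.6% and 31.9% of all tested genes, and 8 were not called. The median log2 fold change of the list was 0.12 in Rbbp4Ins/Ins and 0.10 in Rbbp4Ins/Del, where *Dnmt1* had 0.20 and 0.17. The 4 genes named next had the largest mean change among those called the same way in both mutants. *Rrm2*, a ribonucleotide reductase subunit gene, rose 1.38-fold and 1.41-fold (edgeR adjusted P = 3.9e-17 and 5.4e-18), and *Cdc6*, a replication licensing gene, rose 1.3-fold and 1.32-fold (edgeR adjusted P = 3.2e-09 and 6.6e-10). *Tyms*, thymidylate synthase, rose 1.20-fold and 1.32-fold, and *Ccne1*, cyclin E1, 1.16-fold and 1.3-fold (edgeR adjusted P at most 5.6e-07 in each). The part of the cell cycle in the *Dnmt1* and *Uhrf1* values was not tested.

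All 4 primed epiblast markers, *Fgf5*, *Otx2*, *Pou3f1*, and *Sox3*, were called lower in both mutants, and their summed normalized count lay between 3255 and 3670 in the control, 643.8 and 696.3 in Rbbp4Ins/Ins, and 480.9 and 525.4 in Rbbp4Ins/Del. Of the 10 ESC markers, 7 were called higher and 2 lower in Rbbp4Ins/Ins, and 6 higher and 1 lower in Rbbp4Ins/Del. *Zfp42*, a marker of naive ESCs, was 1.87-fold and 2.08-fold higher (edgeR adjusted P = 1.4e-26 and 6.3e-29), and *Pou5f1*, expressed in naive and primed cells, had log2 values of -0.12 and -0.03. *Utf1*, another of the ESC markers, fell from a mean of 4354 ± 299 normalized counts in the control (SD, n = 3) to 3124 ± 178 in Rbbp4Ins/Ins and 2648 ± 197 in Rbbp4Ins/Del. In bulk RNA, fewer cells of a type and less RNA per cell cannot be told apart, and the part of these markers' cells in the *Dnmt3a*, *Dnmt3b*, and *Dnmt3l* values was not tested.

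Markers of other lineages that a culture could hold were at the following sums of normalized counts. Of 4 tested fibroblast markers, 3 were called lower and 1 higher in each mutant, with sums from 574.9 to 670.4 in the control, 252.8 to 282.3 in Rbbp4Ins/Ins, and 338.4 to 362.2 in Rbbp4Ins/Del. The collagen genes fell, *Col1a1* from a mean of 286.7 to 17.04 and 24.4 and *Col1a2* by 38.9-fold and 27.0-fold to 6.434 and 9.28, while *Thy1* rose from 45.7 to 245.7 and 311.6 and made up most of the mutant sums. The 4 neural progenitor markers had 2 called lower and 1 higher in each mutant, with sums from 3007 to 3058, 1324 to 1454, and 1643 to 1710 in the same order. *Pax6* fell from a mean of 678.3 to 73.62 and 30.09 and *Nes* from 1744 to 230.3 and 205.3, while *Tubb3* rose from 471.8 to 967.1 and 1295. Of 5 tested primitive endoderm markers, 2 were called lower in each mutant, and 0 were called higher by edgeR in Rbbp4Ins/Ins (0 at an unadjusted P-value under 0.05 and 0 with DESeq2) and 3 in Rbbp4Ins/Del, with sums from 346.5 to 380.2, 155.4 to 195.0, and 209.4 to 241.3. *Dab2*, which made up most of the control sum, fell from a mean of 265.5 to 104.1 and 108.6, and *Gata4* from 46.69 to 15.87 and 22.11. *Gata6* went from 16.18 to 20.27 and 35.81, *Sox17* from 7.459 to 11.2 and 16.65, and *Pdgfra* from 22.1 to 21.22 and 41.52. Of 4 tested trophectoderm markers, 1 was called higher in each mutant, and 3 were called lower in Rbbp4Ins/Ins and 2 in Rbbp4Ins/Del, with sums from 411.2 to 441.7, 414.4 to 453.3, and 345.6 to 394.6. *Eomes* rose from a mean of 192.7 to 321.8 and 270.9, while *Krt7* fell from 149.0 to 82.22 and 50.38 and *Cdx2* from 30.11 to 2.403 and 2.485. No marker of these lists was at 0 in every library.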

How the data were processed

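RNA from the 9 libraries was isolated with TRIzol, and libraries were made with the Kapa mRNA HyperPrep kit and sequenced as paired reads of 50 bases. The authors aligned the reads to mm10 with STAR 2.7.3 and counted reads per gene with HTSeq, per the labels' processing notes, and tested them with DESeq2 1.22.2. The deposited values are these raw counts per gene symbol. The HTSeq version, annotation, and strand setting are not given in the sources used here.

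Low genes were removed with filterByExpr of edgeR 4.0.16 (R 4.3.3), TMM factors (0.993 to 1.02) were computed, and 1 quasi-likelihood fit with glmQLFit covered the 9 libraries as 3 groups without covariates. Contrasts were tested with glmQLFTest. P-values were adjusted by Benjamini-Hochberg over 14125 genes and called at 0.01 or less, the limit of the study's methods. SEs were derived from the F statistic, as absolute log2 fold change over its square root. Normalized counts are relative to the mean effective library size. Pairs of libraries of a line differed by more than sampling noise (chi-square per gene 1.91 to 4.89). RPKM used the union of exons of each gene in the GENCODE annotation of GRCm38. Tables were made with Python 3.11.15 and pandas 2.3.3, and figures with matplotlib 3.10.9. The fit was tested on simulated data.

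The members and lists were chosen with earlier results of these data known. All members are named, with *Rbbp4*, at most 4 genes per list with the largest mean absolute change among genes called the same way in both mutants, and the gene most correlated with each member. The genes named to account for germline genes not called higher, the marker genes, and genes that share exons with members were named outside this rule. Alternatives were DESeq2 1.42.0, its size factors within edgeR, total counts, no filter beyond 1 read, fits of 2 groups, a replicate block, omission of each library in turn, a limit of 0.05 on the adjusted P-value, and the longest transcript as the length. ChIP-seq was not analysed here. The gene most like *Dnmt3a* across libraries is not reported here.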

Additional observations from a re-analysis of the deposited data

Results flagged for a closer look

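Of the members and the genes named above by the rule from the 7 lists, 10 differed between the mutant lines in the direct edgeR comparison. The adjusted P-value was 0.01 or less, and the values are log2 fold changes of Rbbp4Ins/Del minus Rbbp4Ins/Ins. *Rbbp4* and the marker genes of cell types were not part of this count. *Dnmt3a* differed by 0.34, *Dnmt3l* by 0.35, and *Tet2* by 0.32, with each Rbbp4Ins/Del library above each Rbbp4Ins/Ins library. Among the regulators, *Zfp57* differed by 0.21 and *Dppa3* by -0.93, the largest negative value of the 10. Around TET, *Idh1* differed by 0.33 and *Cxxc5* by -0.28. Of the germline genes, *Sohlh2* differed by 0.24 and *Asz1* by 1.36, the latter from between 8 and 45 reads per library and its call was lost when any of 4 libraries was left out (log2 1.13 to 1.33). Of the S-phase genes, *Ccne1* differed by 0.16.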

How the results depend on the processing

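Of 114 log2 fold changes of members, *Rbbp4*, and list genes named by the rule, 98 kept their direction and their side of the threshold under every alternative, up to 15 each. Another 8 changed sign, of which 7, all between the mutants, were called in no setting. *Cdca7l*, *Idh3b*, and *Tdh* had 0.002, 0.006, and 0.004 with DESeq2 size factors, against -0.009, -0.005, and -0.007, and *Idh3b* and *Tdh* had 0.005 and 0.002 with DESeq2. Without single libraries the 7 ranged from -0.033 to 0.037 (*Cdca7l*), -0.017 to 0.016 (*Idh3b*), -0.041 to 0.019 (*Tdh*), -0.337 to 0.718 (*Cxxc4*), -0.298 to 0.046 (*Gadd45g*), -0.106 to 0.053 (*Gadd45b*), and -0.011 to 0.054 (*Cdc6*). The remaining one was *Tet1* in Rbbp4Ins/Ins. Others crossed the threshold without a change of sign, among them *Zbtb4*, *Asz1*, *Tet1*, and *Tdg* as given above. Between the mutants, *Bhmt*, *Shmt2*, and *Tyms* had log2 values of 1.07, 0.10, and 0.13. They were not called (edgeR adjusted P = 0.0121, 0.019, and 0.0114), but were called in 5, 2, and 2 of the alternatives. *Dnmt3a*, *Dnmt3b*, *Dnmt3l*, *Dnmt1*, *Uhrf1*, *Tet2*, and *Tet3* kept their calls in both mutants. Without single libraries, *Dnmt3a* ranged from -1.69 to -1.61 in Rbbp4Ins/Ins and from -1.32 to -1.28 in Rbbp4Ins/Del, and *Dnmt3l* from 0.86 to 0.91 and from 1.21 to 1.27. For *Tet1* the calls changed as given above, with log2 values from -0.001 to 0.098 in Rbbp4Ins/Ins and 0.08 to 0.18 in Rbbp4Ins/Del, and the cause was not tested. Between the mutants, 1527 genes were called, 2682 at a limit of 0.05, and between 988 and 1646 without single libraries, 1014 without the first Rbbp4Ins/Ins library and 988 without the second Rbbp4Ins/Del library. With the longest transcript as the length, the shares in the control, Rbbp4Ins/Ins, and Rbbp4Ins/Del became 4.22%, 1.10%, and 1.14% for *Dnmt3a*, 30.4%, 10.3%, and 9.0% for *Dnmt3b*, 48.7%, 73.0%, and 77.2% for *Dnmt3l*, and 77.7%, 76.1%, and 73.3% for *Tet1*. Libraries with the same replicate number did not deviate together (correlations -0.0277 to 0.0559), and 4 of 9 correlated best with their own number. With the number as a replicate block, 8225, 8795, and 1499 genes were called in place of 8252, 8829, and 1527 (Rbbp4Ins/Ins, Rbbp4Ins/Del, and between the mutants), and no call of a member or named gene changed. In the lists, 1 S-phase gene in place of 2 differed between the mutants. Against the control, 8 regulators of DNA methylation in place of 9 and 10 S-phase genes in place of 11 were called in Rbbp4Ins/Del. No scaling moved the median of all genes by more than 0.1. Among the 9 members depth limits precision most for *Tdg*, with 38 to 88 reads per library, and list genes with fewer reads, such as *Bhmt* and *Asz1*, had larger SEs.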
